A study of Mus musculus with 16 samples.

Results

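N6-methyladenosine (m6A) peaks that lie inside long internal coding exons were described in mouse peri-infarct cortex. A peak was a member when the midpoint of its exonic part fell in the coding sequence, in an exon of 400 nt or longer that was neither the first nor the last, and more than 200 nt from the stop codon, on the transcript of its gene whose coding sequence is longest. By this rule 25590 of the 169564 peaks in 8 lists were members. Joined over the lists by at least 1 shared exonic base, they made 5821 of 52776 regions.
The tissue came from male C57BL/6J mice of 6 to 8 weeks. Sham mice had the surgery without the occlusion, and the other mice had a middle cerebral artery occlusion (MCAO) of 2 h and then reperfusion (R) for 0 h (MCAO/R-0 h), 6 h (MCAO/R-6 h) or 24 h (MCAO/R-24 h). Where several groups are set side by side they are given below by their time of reperfusion. Mice of all groups were anaesthetized with Avertin before the surgery. Each of the 4 groups had 2 m6A-IP libraries, and no group carried a transgene, a knockout or a further drug. In this assay RNA fragments bound by an m6A antibody (IP) are sequenced beside the unselected fragments (input), and a stretch where the IP exceeds the input is called as a peak. The surgery groups had 6 mice each, and the labels do not say whether the 2 libraries of a group came from separate mice, so the spread between them may be technical. A list states where peaks were called and gives each a score. It holds no counts, so depth is unknown and neither RNA levels nor markers of cortical cell types could be read from it.

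m6A is written onto nascent RNA by the METTL3-METTL14 complex with cofactors such as VIRMA and ZC3H13, mostly at the sequence RRACH, where R is A or G and H is A, C or U, and it is read by YTH-domain proteins. It is known to concentrate around stop codons and in unusually long internal exons. Exon junction complexes, which are left upstream of splice junctions, are known to keep the RNA around them free of the mark, so that short internal exons carry little of it. Most internal exons are short. Long ones often belong to large chromatin regulators, transcription factors, scaffolds and cadherins.

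Sequences are given for the 6 regions that were present in all 8 lists with the highest score ranks. These are extremes in rank and broader than the median member, so they are not typical members. Eloa and Afdn are shown as the highest-ranking regions gained and lost at 24 h with bases common to all the lists that hold them. (Lzts1, which ranked above Eloa, had no such bases.) For each, the stretch shared by the lists that hold the region is given, at most 120 bases around its middle, read 5′ to 3′ on the coding strand of the GENCODE M39 transcript (GRCm39), with every RRACH in capitals. Neighbouring or overlapping sites run together.
Arhgap5, chr12:52563339-52563458, plus strand, exon 2 of 7: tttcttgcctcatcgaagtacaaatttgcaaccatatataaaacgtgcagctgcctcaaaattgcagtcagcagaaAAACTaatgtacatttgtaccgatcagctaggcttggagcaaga
Mga, chr2:119778064-119778183, plus strand, exon 17 of 24: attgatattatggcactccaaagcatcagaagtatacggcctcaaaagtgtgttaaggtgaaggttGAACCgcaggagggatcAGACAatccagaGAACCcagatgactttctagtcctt
Zeb2, chr2:44886601-44886720, minus strand, exon 8 of 10: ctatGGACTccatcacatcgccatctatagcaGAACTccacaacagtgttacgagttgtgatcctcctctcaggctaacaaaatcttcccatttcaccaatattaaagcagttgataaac
Epha7, chr4:28821179-28821298, plus strand, exon 3 of 17: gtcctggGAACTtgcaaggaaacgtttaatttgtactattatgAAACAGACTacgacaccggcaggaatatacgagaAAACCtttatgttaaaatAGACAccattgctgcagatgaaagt
Spen, chr4:141244476-141244595, minus strand, exon 3 of 16: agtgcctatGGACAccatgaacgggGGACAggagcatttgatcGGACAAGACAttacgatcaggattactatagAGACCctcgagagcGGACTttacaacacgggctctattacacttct
Nipbl, chr15:8380027-8380146, minus strand, exon 10 of 47: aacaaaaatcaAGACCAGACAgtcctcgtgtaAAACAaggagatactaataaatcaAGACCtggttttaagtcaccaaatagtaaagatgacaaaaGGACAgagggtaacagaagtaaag
Eloa, chr4:135738639-135738719, minus strand, exon 4 of 11: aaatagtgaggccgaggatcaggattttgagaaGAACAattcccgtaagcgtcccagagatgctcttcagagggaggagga
Afdn, chr17:14109141-14109190, plus strand, exon 30 of 34: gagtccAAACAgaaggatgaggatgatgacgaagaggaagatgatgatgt
The windows of the 6 recurrent regions held 1 to 6 RRACH sites each. The Arhgap5 window held 1, and that of Spen held 6.

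These 6 regions stood near the top of every list. Arhgap5, which encodes a GTPase-activating protein, carried a region in an exon of 3861 nt whose score exceeded that of 99.8% or more of the peaks of each list. Its exonic length ran from 900 to 1300 nt. The region of Zeb2, a zinc finger homeobox repressor of transcription, had a lowest rank of 99.6% over the lists, with 800 to 950 exonic nt. In Nipbl, which loads cohesin onto chromatin, the lowest rank was 99.2% and the length 625 to 800 nt. Mga, a transcription factor that pairs with MAX, had an exonic length of 1125 to 1375 nt. Epha7, a receptor for ephrins, had one of 525 to 643 nt. The ranks chose these examples and are given as a description.

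Long internal coding exons were a small class of exons that held a large share of the peaks. The annotation held 4563 of them in 3631 genes, with a median length of 681 nt. They made up 2.85% of the internal coding exons and 17.6% of the internal coding sequence that lies over 200 nt from the stop codon. At least 1 list had a member peak in 2627 of these exons, or 57.6%, in 2143 genes. Among the 1948 genes that also had a peak within 200 nt of the stop codon or in the 3′ UTR in at least 1 list, 82.8% had a member peak.
Member peaks numbered 2891 and 3119 in the Sham lists, 3056 and 3510 at 0 h, 3450 and 3477 at 6 h, and 2903 and 3184 at 24 h. Longer lists mostly held more members. The member share stayed between 14.3% and 15.5%, with a mean of 15.1% ± 0.452 (SD, n = 8). The share did not separate the groups (one-sided exact permutation test, which divides the 8 libraries into 4 pairs in every possible way, p = 0.505, Benjamini-Hochberg adjusted p = 0.505 over 3 group tests). The smallest p that this test can give is 0.00952.
Members were broader than the peaks of short internal exons. Their median exonic length was 125 or 150 nt in each list, against 75 nt in all 8 lists for peaks in internal coding exons under 400 nt. On average 10.2% ± 0.853 of the members and 53.2% ± 0.877 of the short-exon peaks crossed a splice junction (SD, n = 8). Members also had higher scores, compared over all genes of a list and not within the same genes. The parts of RNA level and peak width in the scores were not tested. The median member outscored 60.6% ± 0.714 of the peaks of its list and the median short-exon peak 42.4% ± 1.28, a difference of 18.2 points that had the same direction in all 8 lists (exact sign-flip test over libraries, two-sided, p = 0.00781, adjusted p = 0.00781 over 5 tests, the smallest this test can give).

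Within the same genes, long internal coding exons were more densely covered than short ones. The comparison used the 1793 genes that have both kinds of exon and a peak near the stop codon or in the 3′ UTR, with 2189 kb of long and 2969 kb of short exon sequence. The density of peak midpoints was 1.11 ± 0.0762 per kb in long exons and 0.312 ± 0.0255 per kb in short exons (SD, n = 8). The ratio of the densities was 3.22 and 3.52 in the Sham lists, 3.37 and 3.69 at 0 h, 3.50 and 3.60 at 6 h, and 3.88 and 3.79 at 24 h. Every list was above 3, with a mean log2 ratio of 1.83 ± 0.09 (exact sign-flip test, two-sided, p = 0.00781, adjusted p = 0.00781). Measured as the share of bases under a peak, the contrast was 20.5% ± 2.15 against 3.41% ± 0.358. This second measure was added after the data were seen.
The 2 MCAO/R-24 h lists had the highest ratios of the 8. Their density in short exons, at 0.260 and 0.289 per kb, was the lowest of the 8. Their density in long exons was 1.01 and 1.10 per kb, against 1.02 to 1.21 per kb in the other lists. The 4 groups did not differ in the ratio beyond the spread of their pairs (exact permutation test, one-sided, p = 0.229, adjusted p = 0.343).

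**Figure D1:**
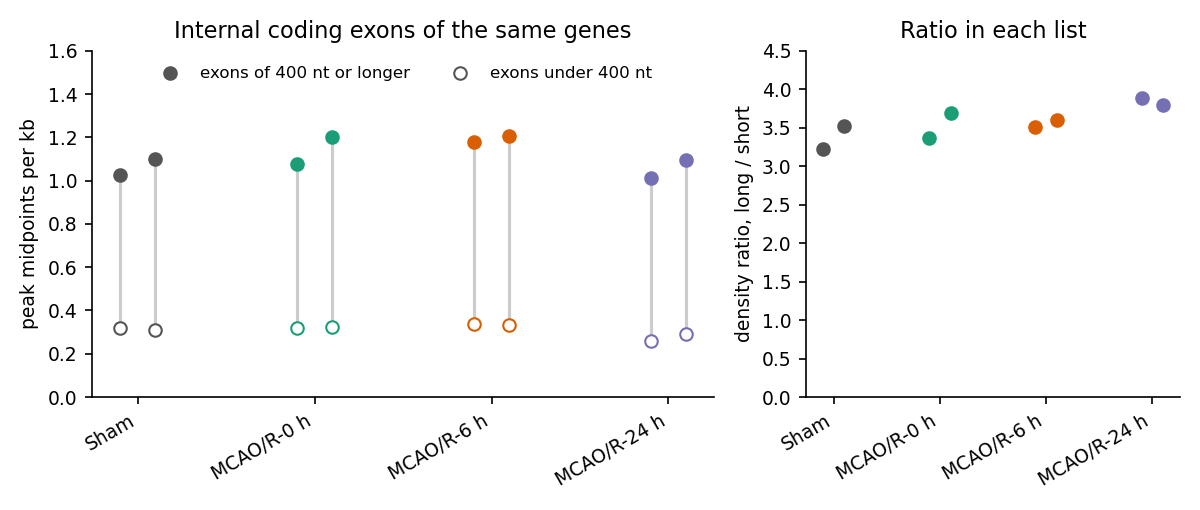
Peak midpoints per kb in internal coding exons of 400 nt or longer (filled points) and under 400 nt (open points) of the same 1793 genes (left), and the ratio of both densities (right), with 1 point per list and 2 lists per group. Every filled point lies above 1.0 per kb and every open point below 0.34 per kb, and the 2 MCAO/R-24 h lists have the highest ratios, 3.88 and 3.79.

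The density rose with exon length between 200 and 600 nt and varied less beyond. Exons under 100 nt had 0.286 ± 0.0409 midpoints per kb and those of 100 to 199 nt 0.279 ± 0.0245. Just outside the limit of 400 nt, exons of 200 to 399 nt had 0.397 ± 0.0330 per kb, and just inside it, those of 400 to 599 nt had 0.937 ± 0.0853. The density was 1.15 ± 0.0629 per kb from 600 to 999 nt, 1.26 ± 0.0806 from 1000 to 1999 nt, and 1.05 ± 0.0892 from 2000 nt (SD, n = 8 throughout). The share of exons with at least 1 midpoint in a list went from 2.04% ± 0.294 below 100 nt to 34.7% ± 3.32 at 400 to 599 nt and 85.1% ± 3.02 from 2000 nt. A longer exon has more room for a peak, so the share per exon is not a rate.
The density varied less with the place in the gene than with exon length. Long penultimate exons had 1.09 ± 0.0819 midpoints per kb and the other long internal exons 1.11 ± 0.0771. With the coding sequence cut into 3 equal parts, the density was 1.14 ± 0.0722 per kb in the 5′ part, 1.08 ± 0.0887 in the middle and 1.13 ± 0.0767 in the 3′ part. The 5′ part was above the middle part in 8 of 8 lists. No test was run on these places.

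**Figure D2:**
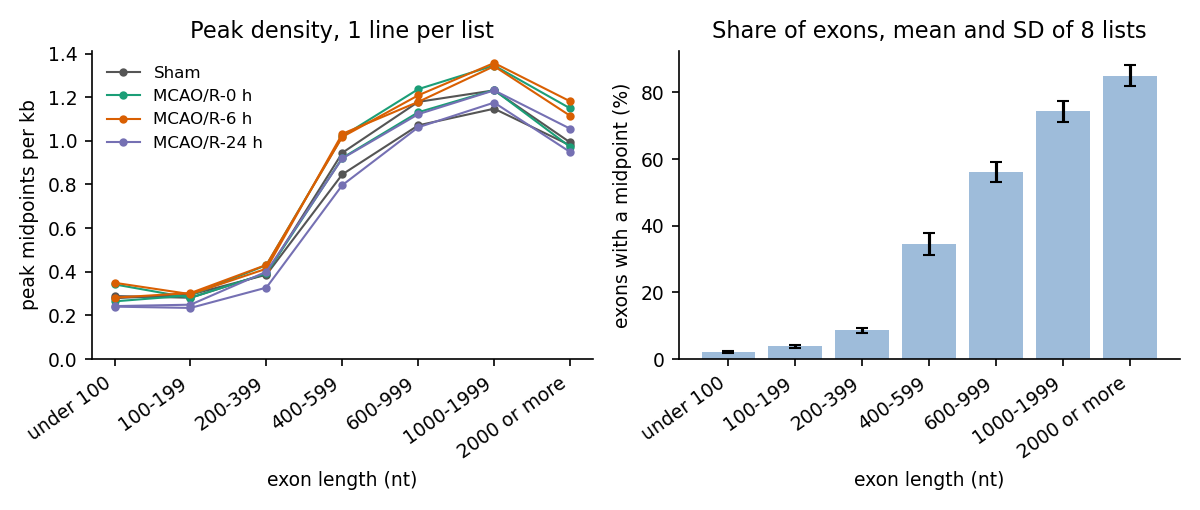
Peak midpoints per kb by exon length, with 1 line per list coloured by group (left), and the share of exons with at least 1 midpoint as the mean of 8 lists with SD (right), in the same 1793 genes. All 8 lines step up between 200-399 nt (mean 0.397 per kb) and 400-599 nt (mean 0.937 per kb), and the share reaches 85.1% for exons of 2000 nt or more.

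Within the exons, the members were thinned out upstream of the 3′ end of the exon. At 50 to 99 nt from the 3′ end of the exon the number of midpoints was 0.733 ± 0.0438 times that of even placement over the same exons, and at 100 to 149 nt it was 0.665 ± 0.0296. It passed the even level at 200 to 249 nt, with 1.01 ± 0.0971. Within 50 nt of that end it was 0.977 ± 0.0667. The 5′ end showed no such trough. The ratio there was 1.12 ± 0.0743 within the first 50 nt, 0.950 ± 0.0677 at 50 to 99 nt and 1.22 ± 0.0938 at 350 to 399 nt. The profile is a description, and no test was run on its steps. By the sample records the RNA was fragmented to about 200 nt, and the study's methods give a shorter length, so a step of 50 nt is finer than a fragment.
Taken over both ends, 17.3% ± 0.745 of the midpoints lay within 100 nt of an exon end, against 18.5% ± 0.151 under even placement (log2 ratio -0.09 ± 0.05, lower in 8 of 8 lists, exact sign-flip test, two-sided, p = 0.00781, adjusted p = 0.00781). In MCAO/R-6 h replicate 1 the log2 ratio was only -0.00112, with 18.58% against 18.59%. The deficit also depended on the window. Within 50 nt of an end it turned to an excess, with a log2 ratio of 0.06 (p = 0.0234, exact sign-flip test), and with exons from 300 nt on it was -0.01 (p = 0.531, exact sign-flip test). The part of the exon 3′ of its midpoint held 48.4% ± 0.584 of the midpoints and its share by length was 50.7% ± 0.0841, a difference of -2.24 points ± 0.621 (lower in 8 of 8 lists, exact sign-flip test, two-sided, p = 0.00781, adjusted p = 0.00781).

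**Figure D3:**
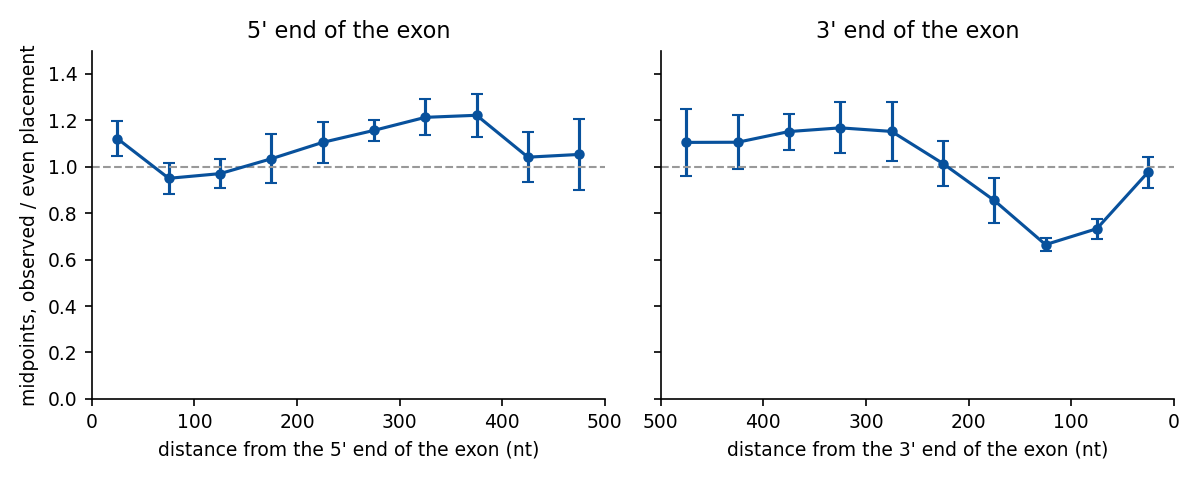
Number of member midpoints divided by the number under even placement, in steps of 50 nt from the 5′ end (left) and from the 3′ end (right) of long internal coding exons, as the mean of 8 lists with SD. The dashed line is even placement. The lowest point, 0.665, lies 100 to 149 nt from the 3′ end.

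Member peaks were richer in RRACH than the rest of the same exons. Inside the peaks there were 20.4 ± 0.172 sites per kb, and in the bases of the same exons outside every peak there were 15.1 ± 0.104, a log2 ratio of 0.44 ± 0.01 that was positive in 8 of 8 lists (exact sign-flip test, two-sided, p = 0.00781, adjusted p = 0.00781). Only the coding strand was searched. Only member peaks with at least 125 nt inside the exon gave a central window of that length, 13687 windows in the 8 lists. At least 1 site was in 93.5% ± 0.509 of these, and in 82.2% ± 0.295 of windows of 125 nt in the rest of the exons. Over all members, narrower ones included, 85.6% ± 0.732 held at least 1 site.
The 12 words that RRACH stands for were not raised alike. Those ending in U led. AAACU had a mean log2 ratio of 1.00 ± 0.05, GAACU 0.92 ± 0.05, GGACU 0.89 ± 0.07 and AGACU 0.73 ± 0.02. AAACA followed with 0.70 ± 0.03. The words ending in C were split. AAACC had 0.37 ± 0.06 and GGACC 0.15 ± 0.04, both higher inside the peaks in 8 of 8 lists. AGACC had -0.11 ± 0.02 and GAACC -0.22 ± 0.06, and both were lower inside the peaks in 8 of 8 lists. The peaks also had a lower GC content, 48.4% ± 0.265 against 53.7% ± 0.225 in the rest of the exons (SD, n = 8). The part of base composition in the word ratios was not tested.

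Members recurred from list to list more often than the peaks of short exons. Of the 5821 regions in long exons, 904 (15.5%) were in all 8 lists and 2244 (38.6%) in 1 list. Of the 11521 regions in internal coding exons under 400 nt, 148 (1.28%) were in all 8 and 7611 (66.1%) in 1, and over all 52776 regions the shares were 8.97% and 52.6%. Both lists of a group held 47.6% of the long-exon regions that either of them held in Sham, 49.0% at 0 h, 51.1% at 6 h and 48.9% at 24 h. For short exons these shares were 16.5%, 19.4%, 20.3% and 16.6%. In each of the 4 groups the long-exon share was the higher one. Broader and higher-scoring peaks, as the members are, have more bases to share with another list, and the part of width and score in recurrence was not tested.
Among the long exons, those of 400 to 599 nt had 10.9% of 1150 regions in all 8 lists. The share was 16.1% of 1637 regions at 600 to 999 nt, 17.1% of 1550 at 1000 to 1999 nt and 16.8% of 1484 from 2000 nt.

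**Figure D4:**
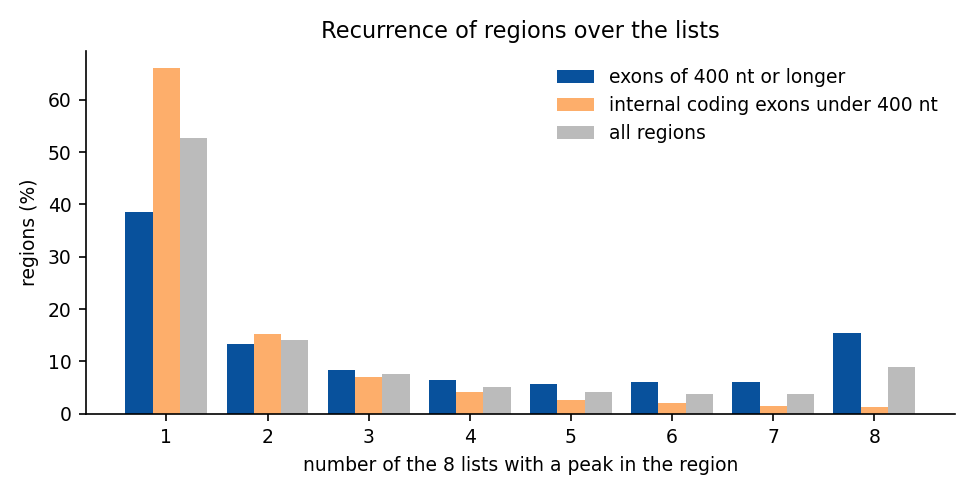
Share of regions by the number of lists that hold a peak in them, for long internal coding exons (5821 regions), internal coding exons under 400 nt (11521) and all regions (52776). In all 8 lists were 15.5% of the long-exon regions and 1.28% of the short-exon regions.

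On average, lists of the same group shared slightly more member regions than lists of different groups, but the Sham pair did not. The Jaccard index, the number of shared regions over the number in either list, was 0.476, 0.490, 0.511 and 0.489 for the pair of lists of Sham and those at 0, 6 and 24 h. Sham replicate 2 had 0.474 to 0.490 with the MCAO/R lists. The 24 pairs across groups ran from 0.448 to 0.503, so the ranges overlapped, and their mean of 0.476 was not below the Sham pair. The mean within groups was higher by 0.0153 (exact permutation test over the same divisions, one-sided, p = 0.00952, the smallest it can give, adjusted p = 0.0286). Without MCAO/R-6 h replicate 1 the difference was 0.00964 with p = 0.105, and without MCAO/R-6 h replicate 2 it was 0.0102 with p = 0.0571 (both exact permutation tests), so the call rested on the pair with the highest index.

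Most of the genes with the most recurrent regions encode very large nuclear, centrosomal or adhesion proteins. In 651 genes at least 1 region was present in all 8 lists. Fat3, a giant cadherin of the Fat family, led with 8 such regions among 18. Its 5 long internal exons carried 16 and 17 peaks in Sham, 19 and 16 at 0 h, 18 and 23 at 6 h, and 19 and 18 at 24 h, or 1.97 per kb on average. Both Sham lists of Fat3 lay below those at 6 and 24 h, and the lists at 0 h spanned the gap. Here and below, peak counts of single genes were not adjusted for the length of the lists. The longest of these exons is exon 10 of 26, with 4074 nt, at chr9:15907120-15911193.
Ice1, a scaffold of the little elongation complex for small nuclear RNA genes, had 7 regions in all lists out of 12. Its long exons carried 10 and 13 peaks in Sham, 8 and 9 at 0 h, 11 and 10 at 6 h, and 8 and 9 at 24 h.
Setd2 and Ash1l, both histone methyltransferases, had 6 each out of 13. Setd2 had 14 and 10 peaks in Sham, 13 and 10 at 0 h, 11 and 14 at 6 h, and 9 and 8 at 24 h. The MCAO/R-24 h lists of Setd2 were the lowest of the 8 by 1 peak or more. Ash1l ranged from 9 to 14 peaks, and its groups overlapped.
Cep350, a large protein of the centrosome, also had 6 regions in all lists, spread over 5 long exons, with 9 to 15 peaks per list. In all lists, 5 regions each were found in Bod1l, which protects replication forks (11 to 15 peaks per list), Akap9, which anchors protein kinase A at the centrosome and Golgi (9 to 13), Spen, a transcriptional corepressor (10 to 18), Casp8ap2, a factor in histone mRNA processing (6 to 12), and Hivep1, a zinc finger transcription factor (9 to 14). Over these 10 genes the density ran from 1.43 per kb in Spen to 2.42 per kb in Akap9. They were picked by their number of recurrent regions, which a long exon favours.
Members were spread over many exons. The 10 exons with the most held 2.95% of all members, and the 100 with the most 18.3%. In an average list, 46.3% ± 0.902 of the exons with a member had more than 1.

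**Figure D5:**
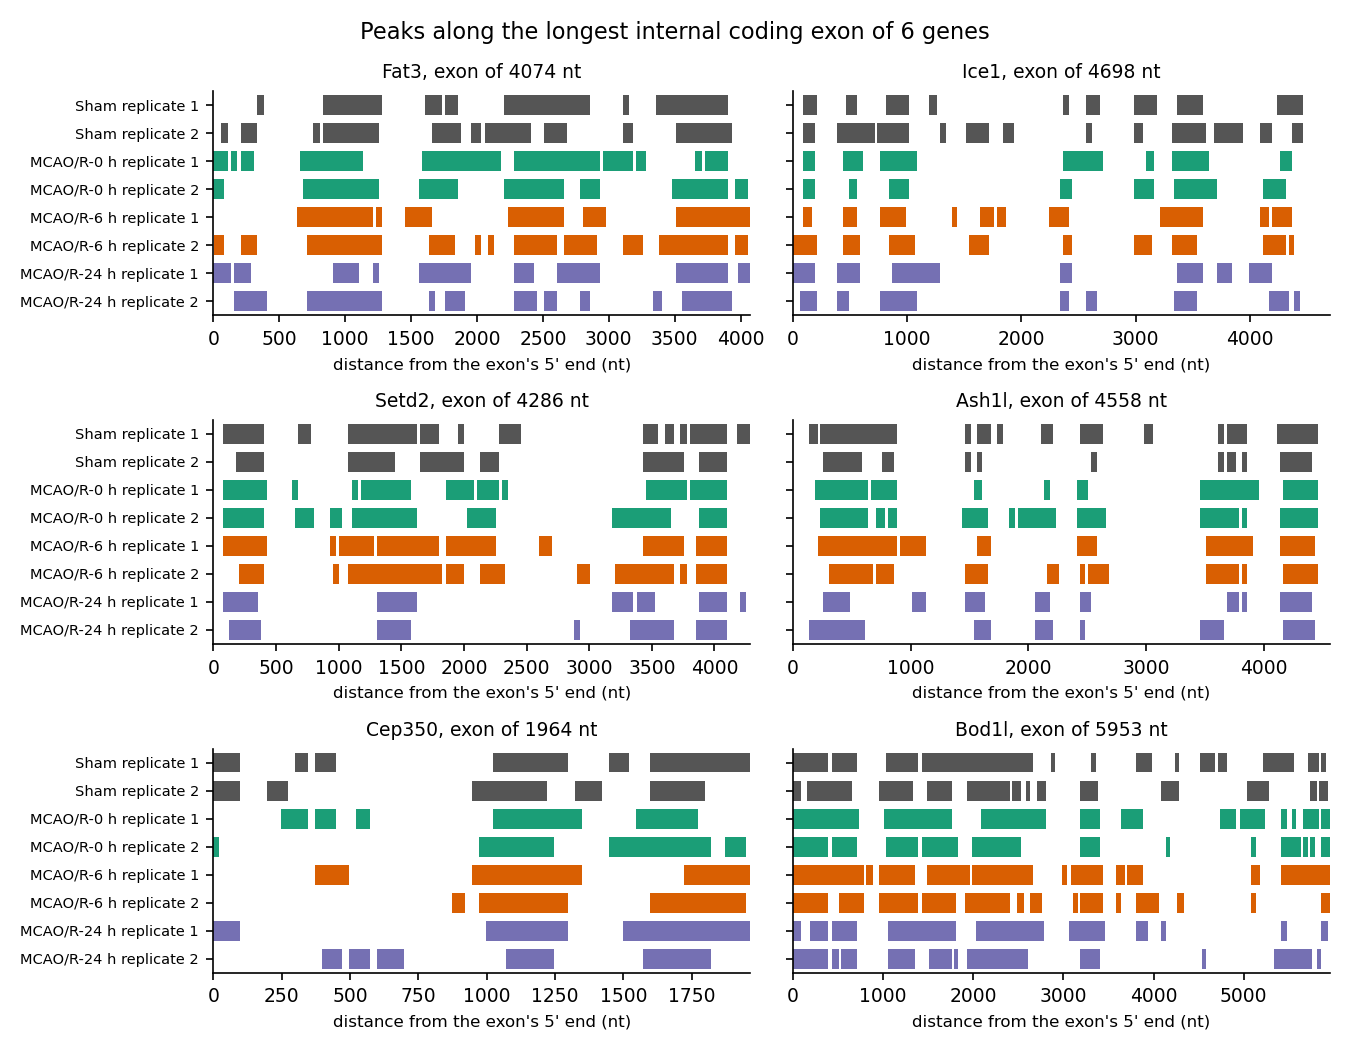
Member peaks along the longest internal coding exon of the 6 genes with the most regions in all 8 lists (Fat3, Ice1, Setd2, Ash1l, Cep350 and Bod1l), as bars from the 5′ end of the exon in nt, with 1 row per list coloured by group. Bars stack at the same places in the 8 rows, as around 1000 nt in Fat3, and long stretches between the stacks hold few bars or none.

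The very longest internal coding exons differed widely in their peaks. Among the genes with a peak near the stop codon or in the 3′ UTR, the 6 longest internal coding exons ranged from 9837 to 6569 nt, and their densities from 1.39 per kb to 0.
Spen exon 12 of 16 (8020 nt, chr4:141198681-141206700) had 16 and 10 peaks in Sham, 9 and 11 at 0 h, 9 and 12 at 6 h, and 9 and 13 at 24 h, or 1.39 per kb. Map1a exon 5 of 7 (8104 nt, chr2:121129750-121137853), which encodes most of a microtubule-associated protein of neurons, had 0 peaks in each of the 8 lists. No peak of any list overlapped that exon, and the only 2 peaks of Map1a lay near its stop codon or in its 3′ UTR.
Stard9 exon 22 of 32 (9837 nt), in the gene of a mitotic kinesin, had 2 and 2 peaks in Sham, 3 and 11 at 0 h, 6 and 9 at 6 h, and 1 and 7 at 24 h. The replicates of one group differed for Stard9 as much as the groups did, and none of its 21 regions was in all lists. Srrm2, which encodes a scaffold of nuclear speckles, had 5 and 5 peaks in Sham, 2 and 2 at 0 h, 1 and 1 at 6 h, and 1 and 2 at 24 h, in an exon of 6569 nt. Both Sham lists lay above all 6 MCAO/R lists in Srrm2. No test was run on single exons.
Bsn, the gene of the presynaptic scaffold bassoon, had 0 to 2 peaks per list in an exon of 6642 nt, or 0.132 per kb. Unc13b, which primes synaptic vesicles, had 2 peaks in all lists together in an exon of 8367 nt, but 39 of its 54 peaks did not lie on the transcript used here. Exon use was not measured here.

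Gene groups differed in how many members they carried per kb. Over all 1948 genes with a long internal coding exon and a 3′ peak, 81.4% had a member region, 28.0% had one in all 8 lists, and the median density was 0.956 peaks per kb. Each gene list below was likewise counted only over its genes with a long internal coding exon and a 3′ peak. These were 28 of 36 chromatin regulators, 11 of 26 genes of DNA damage and p53, and 12 of 24 ubiquitin ligases. Genes of the lists below were longer in such exons than the median gene, with a median of 1.19 to 2.73 kb against 0.805 kb, so each had more bases in which a region could lie. The density is per kb. The lists were drawn up with earlier results of these data known, and their values are descriptions without a test.
All 28 chromatin regulators had a member region, 19 had one in all 8 lists, and their median density was 1.73 per kb. Kmt2d, a histone methyltransferase of enhancers, had 11 and 19 peaks in Sham, 16 and 15 at 0 h, 11 and 13 at 6 h, and 13 and 14 at 24 h. Its relative Kmt2c had 12 and 9 in Sham, 14 and 14 at 0 h, 15 and 12 at 6 h, and 13 and 13 at 24 h. Both Sham lists of Kmt2c lay below those at 0 and 24 h and met those at 6 h. Nsd1, another histone methyltransferase, had 4 to 9 peaks per list.
All 24 coregulators and zinc finger homeobox genes had a member region, 12 had one in all lists, and the median density was 1.31 per kb. Rai1, a transcriptional regulator linked to Smith-Magenis syndrome, had 7 and 12 peaks in Sham, 10 and 8 at 0 h, 8 and 7 at 6 h, and 11 and 7 at 24 h. Within one family the values were uneven, with 1.77 per kb in Hivep1, 1.21 in Hivep3 and 0.186 in Hivep2. Zfhx3, a zinc finger homeobox factor, had 2 and 3 peaks in Sham, 4 and 8 at 0 h, 13 and 16 at 6 h, and 3 and 10 at 24 h. The MCAO/R-6 h lists of Zfhx3 lay above the other 6. Zfhx3 was singled out after its values were seen.
Several proteins that write or read m6A had members in their own transcripts. Of 13 genes for RNA processing and m6A proteins, 12 had a member region, 9 had one in all lists, and the median density was 1.83 per kb. The cytoplasmic readers had most of their coding sequence in a single long internal exon. Ythdf1 had 4 and 3 peaks in Sham, 5 and 3 at 0 h, 5 and 3 at 6 h, and 2 and 2 at 24 h (2.51 per kb). Ythdf2 had 5 and 2 in Sham, 3 and 3 at 0 h, 3 and 5 at 6 h, and 5 and 5 at 24 h (2.76 per kb). Ythdf3 had 3 and 3, 3 and 2, 3 and 3, and 5 and 4 in the same order (2.29 per kb). The MCAO/R-24 h lists were thus the lowest of the 8 for Ythdf1 and the highest for Ythdf3, by 1 peak each, and a count of peaks in an exon also depends on where neighbouring peaks are split.
Virma, a subunit of the writer complex, had 3 to 7 peaks per list with 2 regions in all lists, and Zc3h13, another subunit, had 3 to 5 peaks with 2 regions in all lists. Tnrc6b, which acts with Argonaute in silencing by microRNAs, had 4 to 7 peaks. Prrc2b had 0 peaks in its long exon in all 8 lists, while its relative Prrc2c had 1 to 7.
The 11 genes of DNA damage and p53 signalling all had a member region, 6 of them in all lists, at a median of 1.5 per kb. Rif1, which acts in the choice of repair pathway, had 3 regions, all of them in all lists, and 3 to 7 peaks per list. All 12 ubiquitin ligases and related enzymes had one too, 6 of them in all lists, at a median of 1.55 per kb. Usp34, a deubiquitinating enzyme, had 2 to 3 peaks per list and the ligase Herc1 2 to 6.
Of 21 adhesion and guidance genes, 18 had a member region and 7 one in all lists, with a median density of 1.06 per kb. Fat4, a relative of Fat3, had 3 and 4 peaks in Sham, 6 and 10 at 0 h, 10 and 9 at 6 h, and 6 and 6 at 24 h. Both Sham lists were below all others in Fat4, which was likewise singled out after its values were seen.
The list of synaptic scaffolds had the lowest median density of the gene lists, and the cytoskeletal list was nearer to all genes. Of 25 genes for active zone and postsynaptic scaffolds, 17 had a member region and 6 one in all lists, and the median density was 0.231 per kb. Pclo, the presynaptic scaffold piccolo, had 5 to 15 peaks per list and 4 regions in all lists. Erc1 and Rims2, both of the active zone, had 1 to 3 and 1 to 2, or 1.84 and 1.89 per kb. Their relatives Erc2 and Rims1 had only 0.233 and 0.148 per kb. Shank1, Grin2a, Grin2b, Dlgap3, Dlgap4, Tanc1 and Unc13a, which encode postsynaptic scaffolds, receptor subunits and a priming factor, had 0 peaks in their long internal exons in all 8 lists.
Of 16 cytoskeletal and ankyrin genes, 13 had a member region and 3 one in all lists, at a median of 0.826 per kb. The share with a member region, 81.25%, was near the 81.4% of all genes, and 18.75% against 28.0% had one in all lists. Nav1, Camsap1 and Mtcl1, which act on microtubules, had the 3 recurrent ones. Within the list the densities were uneven. Map1b had 4 peaks over all 8 lists in an exon of 6490 nt, at 0.0770 per kb on average, Map2 had 1 in an exon of 3741 nt, and Ank2 had 0.161 per kb in an exon of 6198 nt. Ank3, an ankyrin of the axon, had 1 to 3 peaks in every list in an exon of 679 nt, or 2.58 per kb, while Map4 had 0.992 per kb and Sptbn4 0.922 per kb. Ank3, Map4, Sptbn4 and the genes named in the lists for few or no peaks were picked after their values were seen.

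Regions that appeared or disappeared with MCAO/R were counted to ask how far the members changed with reperfusion time. A region was called gained when both lists of a time point held it and neither Sham list did, and lost in the reverse case, among the regions in at least 1 of the 4 lists. This is a count without a test, and between 2 and 2 libraries an exact permutation test cannot go below p = 0.33. In bulk tissue, fewer cells of a type and less RNA per cell cannot be told apart, and a transcript with too little RNA gives no peak whatever its methylation. The 3 time points share the Sham lists. Those held 18775 and 20152 peaks, against 19837 and 24078 at 0 h, 22205 and 23200 at 6 h, and 19072 and 22245 at 24 h. The part of list length in the gained and lost counts was not tested. A call also needs both lists of a group. Both lists held 47.6% to 51.1% of the member regions that either of them held. For all regions this was 36.1% to 39.0%, and for short internal exons 16.5% to 20.3%. The part of this agreement in the shares called was not tested.
Of the member regions, 164 (3.74%) appeared and 93 (2.12%) disappeared at 0 h, against 3.84% and 1.87% over all regions. For 6 h the numbers were 238 (5.27%) and 102 (2.26%), against 4.94% and 2.03% over all regions. For 24 h they were 140 (3.31%) and 160 (3.79%), against 3.79% and 2.76% over all regions. The member shares were thus near those of all regions at 0 and 6 h. At 24 h the share lost was the higher and the share gained the lower of both, and regions in short internal exons went the same way, with 2.35% gained and 3.49% lost. With either Sham list left out, members and all regions changed places. Without Sham replicate 1, 7.05% of the member regions were gained and 16.3% lost at 24 h, against 7.02% and 19.5% over all regions, and without Sham replicate 2 the share gained was 9.08% against 8.14%, with the share lost again the lower of both. With either MCAO/R-24 h list left out the share lost stayed the higher one, at 6.94% against 5.20% without replicate 1 and 8.43% against 6.71% without replicate 2.
Some of these regions lay beside a peak that the other group did have. Within the same exon, 21 of the 140 regions gained at 24 h (15.0%) were at most 100 nt from a Sham peak, and 55 (39.3%) were in an exon without any Sham peak. Of the 160 regions lost at 24 h, 31 (19.4%) were at most 100 nt from a peak listed at 24 h and 62 (38.8%) were in an exon without one. The share at most 100 nt away was 17.7% of the gained and 34.4% of the lost regions at 0 h, and 18.5% and 30.4% at 6 h. The share in an exon without a peak of the other group was 34.1% of the gained and 22.6% of the lost regions at 0 h, and 38.2% and 28.4% at 6 h.
All 6 MCAO/R lists and neither Sham list held 24 member regions (0.412%), against 0.261% over all regions. All 6 other lists but neither MCAO/R-24 h list held 31 (0.533%), against 0.229% over all regions. The same number was 9 (0.155%) without MCAO/R-0 h, against 0.0834%, and 9 (0.155%) without MCAO/R-6 h, against 0.129%. Each of these regions is in exactly 6 lists, as were 6.01% of the member regions and 3.80% of all regions. The part of recurrence in these shares was not tested, and no test was run on the counts.

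The leading gained and lost regions were put in order by their weaker score percentile among the 2 lists that define them. At 24 h Lzts1 and then Eloa led the regions gained. Eloa, the elongation factor elongin A, had one in exon 4 of 11 that was listed in neither Sham list. It outscored 81.8% and 84.5% of the listed peaks at 0 h, 79.9% and 82.8% at 6 h, and 90.1% and 89.1% at 24 h, with 150 exonic nt each time, of which the sequence above shows the 81 nt in exon 4. The nearest Sham peak was 100 nt away.
The leading region, in Lzts1, a protein of the postsynaptic density, stood at 91.2% and 89.4% in the MCAO/R-24 h lists, and 3 of the other MCAO/R lists also held it. A Sham peak lay 75 nt from it. Ppm1g, a nuclear protein phosphatase, had a region at 82.6% and 82.0%, and Ppm1g had no peak at all in the Sham lists.
Afdn, the adherens junction protein afadin, led the regions lost at 24 h. Its region near the 3′ end of exon 30 outscored 98.1% and 96.2% of the peaks in Sham, 93.6% and 97.6% at 0 h, and 97.9% and 95.4% at 6 h, and it was in neither MCAO/R-24 h list. The nearest peak of those lists was 500 nt away. Gcc2, a golgin, had a region at 92.5% to 96.0% in the same 6 lists, with a peak of the MCAO/R-24 h lists 50 nt away. Herc1, a giant ubiquitin ligase, had one at 89.2% to 98.0% in exon 37 of 78, with the nearest such peak 5766 nt away along the transcript.
At MCAO/R-6 h the gained regions were led by Zfhx4, a zinc finger homeobox factor, at 91.0% and 94.1%. All 6 MCAO/R lists held it, at 28.6% to 59.9% outside MCAO/R-6 h. Rsph4a, a radial spoke protein of motile cilia, came next with 97.7% and 88.7%, and then Frmpd4, a postsynaptic scaffold, with 88.5% and 91.4%. Epha4, a receptor for ephrins, had a lost region at 95.6% and 93.8% in Sham that was lost at both 0 and 6 h and was in 1 MCAO/R-24 h list at 91.8%. Prrc2c, an RNA-binding protein, had one at 92.1% and 93.0% in Sham and at 82.2% and 68.8% at 0 h, and neither the MCAO/R-6 h nor the MCAO/R-24 h lists held it. Camsap1, which binds microtubule minus ends, had one at 89.3% and 91.3% in Sham.
At MCAO/R-0 h the gained regions were led by Hecw1, a ubiquitin ligase, at 91.4% and 94.9%, 25 nt from a Sham peak. Polr2m, which encodes a subunit of RNA polymerase II, had 89.1% and 86.7%, and Exoc3, of the exocyst, 94.4% and 85.4%. The lost ones were led by Cep170, of the centrosome, at 94.9% and 97.9% in Sham, ahead of Epha4 and of Tcf20, a transcriptional coregulator, at 93.5% and 90.6%. The regions of Cep170 and Tcf20 were listed again in both lists at 6 h and at 24 h.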

How the data were processed

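Peaks were called by the authors with exomePeak2 (p cutoff 0.05, log2 fold change cutoff 0.5), after trimming (Trim Galore 0.6.7) and alignment to GRCm39 (HISAT2 2.2.1). Whether replicates were pooled for a call is not given in the sources used here. The lists held 18775 to 24078 peaks each, which is more than the confident peaks per sample that the paper reports. In the deposited lists every peak has a score, whose scale is not given in the sources used here, so it served only as a rank within a list. The 8 input libraries were not analysed here. The lists hold no counts, so depth is unknown and precision comes from 2 libraries per group.
Each peak is listed as 1 span with introns. Its gene was the one whose exons on the same strand it overlapped most, and the exonic part was rebuilt from GENCODE M39 basic protein-coding transcripts (the authors name VM30 for gene counts). Place and density used the longest-CDS transcript and the bases of an exon inside the coding sequence and over 200 nt from the stop codon. Even placement spreads each midpoint over those bases of its own exon. A region was a member when at least 1 in 2 of its peaks were. RRACH was counted inside each member peak and in bases of the same exons outside every peak.
Group tests were one-sided exact permutations of the 8 libraries into 4 pairs, and paired measures were tested by exact sign flips over 8 libraries, two-sided, with Benjamini-Hochberg adjustment over 3 and 5 tests. The scripts were tested on simulated peaks. Named genes were the 10 with the most regions in all 8 lists, the 6 longest exons, the 3 leading gained and lost regions per time, and examples from 8 gene lists. The members and lists were chosen with earlier results of these data known. Alternatives were leaving out each library, the higher-scoring 50% of each list, exon limits of 300 and 600 nt, 400 nt from the stop codon, the Ensembl canonical transcript, exons of 1 transcript only, equal list lengths, other genes, windows, motifs and joining, and a replicate block. Python 3.11.15, numpy 2.4.6, scipy 1.17.1 and matplotlib 3.10.9 were used.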

Additional observations from a re-analysis of the deposited data

How the results depend on the processing

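Leaving out 1 library, the higher-scoring 50% of each list, exon limits of 300 and 600 nt, 400 nt from the stop codon, the Ensembl canonical transcript and exons of 1 transcript left the density ratio, the share of midpoints 3′ of the exon's middle, RRACH and score-rank results on their side of the threshold in the same direction. The log2 density ratio ran from 1.62 (exons from 600 nt) to 2.14 (higher-scoring 50%) among these settings and was 2.59 by covered bases, an alternative added after the data were seen. The deficit near exon ends lost its call with exons from 300 nt (log2 ratio -0.00873, p = 0.531) and reversed within 50 nt of an end (0.0630, p = 0.0234, both exact sign-flip tests), and the cause was not tested. The similarity within groups without 1 library ran from 0.00964 to 0.0229. With equal numbers of peaks per list the group test of the member share gave p = 0.0667 (exact permutation test).
Gained and lost counts move by construction when 1 library is left out, since 1 list then stands for a group. Against 164, 238 and 140 member regions gained at 0, 6 and 24 h, the counts then ran from 337 to 821, from 415 to 858 and from 273 to 720. Against 93, 102 and 160 lost, they ran from 195 to 534, from 194 to 499 and from 274 to 630. At the highest counts gained, 20.2%, 20.9% and 18.2% of the member regions were called, against 26.2%, 25.6% and 24.7% of all regions, and at the highest counts lost 12.9%, 11.8% and 16.3% against 16.8%, 16.8% and 19.5%. In the higher-scoring 50% of each list 50, 62 and 94 member regions were lost (1.95%, 2.30% and 3.74%), against 2.14%, 2.47% and 3.29% of all regions.
Over member regions, the differences between replicates 1 and 2 correlated between groups at -0.00487 to 0.0312. Over all regions they correlated at 0.00736 to 0.0223. Replicate 2 had the longer list in each of the 4 groups. The labels give only a replicate number, and whether it marks a batch was not tested. With a replicate block the exact permutation tests gave p = 0.250 for the member share, p = 0.0833 for the density ratio among groups and p = 0.0417 for the similarity, the smallest this block allows, with the difference at 0.0153.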
